A study of Mus musculus with 24 samples.

Results

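The comparison described here is that of a high-fat diet with chow in control mice, across all genes measured in inguinal white adipose tissue, a subcutaneous depot of the groin. Its members are 8 of the 24 RNA-seq libraries of the series, chosen by their titles: 4 from mice on the high-fat diet, numbered 1 to 4, and 4 from mice on chow, numbered 1, 2, 4 and 5. All 8 came from male mice homozygous for a floxed Nr3c2, which codes for the mineralocorticoid receptor, with no Cre recombinase, so the gene was intact but the mice were not wild type. The same diets were given to FMRKO mice, which carry the floxed alleles together with Cre under the adiponectin promoter and so lose the receptor in fat cells. Those 8 libraries share none with the control comparison and are set beside it where a value in separate libraries is of use. The remaining 8 libraries, from mice treated with corticosterone, entered the estimate of the spread and are not described. Age, and what the diet held and how long it was fed, were not stated in the labels. Chow titles begin with a further number that high-fat diet titles lack. If it marks a batch, it cannot be told apart from the diet.

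White fat stores surplus energy as triglyceride in large lipid droplets, and on a fat-rich diet it grows by enlarging its fat cells and by forming new ones. Fat cells take up fatty acids from circulating lipoproteins, make some of their own from glucose, and release them by lipolysis under the control of catecholamines and insulin. The pad also holds fibroblast-like precursors, endothelium, macrophages and nerve fibres, and in the groin it encloses a lymph node and lies against skin and muscle. Counts from whole tissue cannot tell fewer cells of a type from less RNA per cell.

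Some libraries carried transcripts of neighbouring tissue or stood apart in cell markers, and results that rest on them are given with and without them. On the lymph node list (22 members tested, 20 of them above 0 in all 8 libraries), the mean log2 CPM (read counts scaled to library size) was 4.22 and 5.85 in high-fat diet libraries 1 and 4 and 0.67 to 1.82 in the other 6. On the skeletal muscle list (18 tested, 15 above 0 in all 8) it was 3.84 in high-fat diet library 3 and -0.62 to 1.53 elsewhere. Chow library 2 had the highest mean on the list of lipid-associated macrophages (6.80), with chow library 5 next among the chow libraries (5.71), against 4.00 and 4.46 in chow libraries 1 and 4 and 5.08 to 5.66 on the high-fat diet. It also led the mitotic list (3.31, the other chow libraries 1.25 to 1.76). The adipocyte identity list (14 tested, all above 0 in every library) was high throughout, and was lowest in high-fat diet library 4 (8.69) and chow library 2 (9.02), against 9.46 to 10.08 in the other 6. Below, "lymph node libraries" are high-fat diet 1 and 4, "the muscle library" is high-fat diet 3, and "macrophage-rich chow libraries" are chow 2 and 5. The last name is relative to chow 1 and 4 on the lipid-associated list, where chow 5 lay near the high-fat diet range. On the resident macrophage list chow 1, 2, 4 and 5 were at 4.5, 5.88, 5.51 and 5.72, against 5.23 to 5.64 on the high-fat diet. Where a gene is said not to pass without named libraries, the test was repeated with those left out. Total counts were 20274665 to 30060098 in the chow libraries and 24178074 to 31598597 on the high-fat diet.

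**Figure D1:**
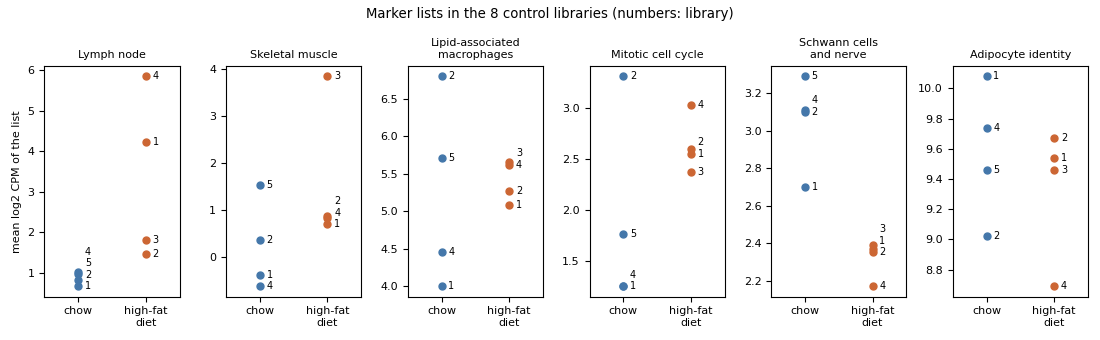
Mean log2 CPM of 6 marker lists in each of the 4 chow and 4 high-fat diet control libraries, 1 point per library with its number. High-fat diet libraries 1 and 4 stand above the rest on the lymph node list (4.22 and 5.85), library 3 on the muscle list (3.84), and chow library 2 on the lists of lipid-associated macrophages (6.80) and mitosis (3.31).

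Of 19717 genes tested, 5758 (29.2%) differed between the diets. Of these 3013 were higher on the high-fat diet (15.3%) and 2745 lower (13.9%) at an adjusted p under 0.05 (edgeR quasi-likelihood test, Benjamini-Hochberg adjustment over all genes tested). For 4567 genes (23.2%) all 4 libraries of one diet lay beyond all 4 of the other. Changes of at least 2-fold were called for 896 higher genes (4.54%) and 909 lower ones (4.61%). At larger sizes rises outnumbered falls: 396 genes rose at least 4-fold and 185 fell as much, and at 16-fold the counts were 144 and 17. This imbalance moved with the lymph node libraries, without which 252 and 200 genes passed 4-fold and 62 and 25 passed 16-fold. Calls were spread over the genome, with 13.2% to 18.5% of the tested genes higher and 10.9% to 16.0% lower on each autosome and the X chromosome. They were more frequent among abundant genes: of genes averaging 200 CPM or more, 33.1% rose and 14.5% fell, and of genes at 0.5 to 2 CPM 5.1% rose and 11.7% fell.

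**Figure D2:**
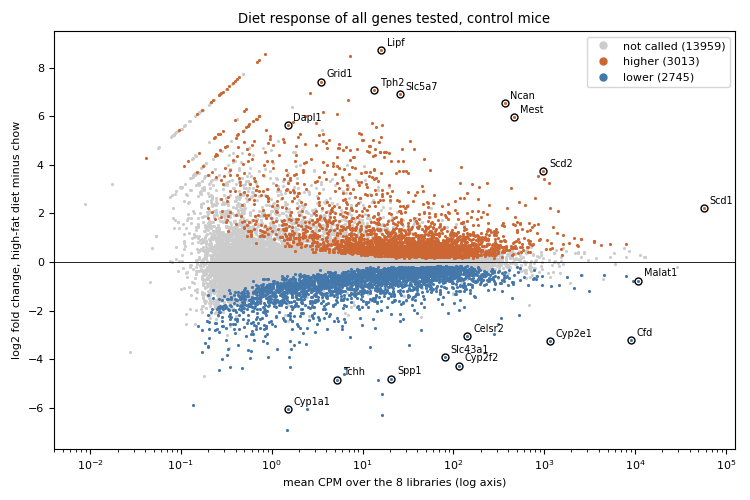
Each of the 19717 genes tested, by its mean CPM over the 8 libraries (log axis) and its log2 fold change between high-fat diet and chow (vertical axis). Coloured points passed an adjusted p of 0.05, 3013 above and 2745 below 0, and the labelled genes are described in the text.

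The genes with the largest rises were close to silent on chow, and many are best known outside fat. Lipf, a lipase secreted by the stomach (chr19:33961187-33976810 in GRCm38), was at 0.129, 0, 0.158 and 0 CPM in chow libraries 1, 2, 4 and 5 and at 18.5, 42.6, 41.3 and 25.9 CPM in high-fat diet libraries 1 to 4 (log2 fold change 8.72 ± 0.77 SE, adjusted p = 1.0e-07). The chow values come from 8 reads in all and those on the high-fat diet from 3292, so the size of the rise depends on few chow reads while its presence in each of the 4 libraries does not. Libraries are listed in this order, chow 1, 2, 4 and 5 and high-fat diet 1 to 4, from here on. Tph2 was at 0.0643, 0.181, 0.118 and 0.44 CPM in the chow libraries and at 13, 29.5, 39.7 and 24.2 CPM in the high-fat diet libraries. This gene codes for the tryptophan hydroxylase of serotonin neurons, and its lowest high-fat diet value lay far above its highest chow value (7.08 ± 0.67). Slc5a7 was at 0.193, 0.603, 0.592 and 0.264 CPM in the chow libraries and at 36.3, 55.2, 63.6 and 48.7 CPM in the high-fat diet libraries. It carries choline into cholinergic nerve endings, and its groups were as far apart (6.92 ± 0.63).

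Mest and Ncan were the most abundant of these induced genes. Ncan, which codes for neurocan, a proteoglycan of brain matrix, was at 15, 4.58, 8.76 and 2.51 CPM on chow and 778, 915, 771 and 453 CPM on the high-fat diet (6.56 ± 0.57, adjusted p = 7.9e-08). Mest was at 21.1, 20.4, 9.79 and 7.57 CPM in the chow libraries and at 698, 1052, 1169.9 and 778 CPM in the high-fat diet libraries. Mest, an imprinted gene linked to the growth of fat cells (chr6:30723547-30748455), thus rose in every library (5.97 ± 0.45). Its neighbour Copg2, a coat protein subunit on the opposite strand, rose from 33 ± 4.19 to 127 ± 26.1 CPM (SD, n = 4; 1.95 ± 0.16). The annotated genes share 902 bases, and since strand use in the counting is not given, reads there cannot be told apart.

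Further large rises were those of Grid1, a glutamate receptor of the delta type (7.43 ± 0.84, from 4 chow reads and 718 high-fat diet reads), and of the WD-repeat gene Wdr95 (6.69 ± 0.51). Unc79, which codes for a partner of a sodium leak channel (5.02 ± 0.51), the inward rectifier Kcnj14 (4.96 ± 0.47) and the desmosome gene Pkp1 (5.30 ± 0.74) followed. Lpar3, a receptor for lysophosphatidic acid, was between 0.079 to 0.352 CPM on chow and between 2.88 to 10.3 CPM on the high-fat diet. Car12, a membrane carbonic anhydrase, was between 0.0905 to 0.237 CPM and between 4.32 to 8.69 CPM. Tmem132b rose as well (5.74 ± 0.80), with high-fat diet library 1 (6.34 to 34.2 CPM over the group) lowest. Some large rises were uneven across libraries. Apoa4, an apolipoprotein, was at 7.04, 0.662, 14.8 and 18.7 CPM on the high-fat diet (6.11 ± 1.49), so library 2 was near the chow range of 0 to 0.276 CPM. Dapl1 was at 2.26, 0.0883, 0.139 and 9.24 CPM, high in the lymph node libraries alone, and its log2 fold change fell from 5.64 to 1.03 without them (adjusted p = 0.809). Apoa4 did not pass the test without chow 2 and 5 (adjusted p = 0.063). In FMRKO mice Lipf, Tph2, Slc5a7, Wdr95, Ncan, Mest, Tmem132b, Grid1, Unc79, Kcnj14, Pkp1, Lpar3 and Car12 also rose, by 3.03 to 8.67.

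The largest falls included enzymes of foreign compound metabolism and proteases of the complement system and of granulocytes. Cyp1a1, the classic target of the aryl hydrocarbon receptor, was at 1.8, 1.57, 5.65 and 2.82 CPM on chow and 0.165, 0, 0 and 0 CPM on the high-fat diet, where 4 reads were counted in all, each of them in library 1 (-6.07 ± 0.87, adjusted p = 3.3e-05). Without that library its high-fat diet count is 0, so the fitted fold has no firm lower end. Cyp2f2 was at 168, 178, 249 and 278 CPM in the chow libraries and at 11.5, 3.97, 24.8 and 4.79 CPM in the high-fat diet libraries. All high-fat diet values of this microsomal oxidase lay far below the lowest chow value, and the log2 fold change was -4.27 ± 0.52. The antisense transcript Gm15883 shares 6194 bases with Cyp2f2 and fell by 6.06 on the log2 scale. Reads in the shared bases cannot be told apart, so its fall cannot be separated from that of Cyp2f2. Cyp2e1 was at 1924, 1544, 2531 and 2376 CPM in the chow libraries and at 213, 240.1, 318 and 103 CPM in the high-fat diet libraries. This ethanol-oxidising enzyme was among the most abundant transcripts to fall (-3.26 ± 0.37).

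Transporters and surface proteins made up much of the rest. Slc43a1 was at 165, 133, 179.7 and 130.3 CPM in the chow libraries and at 10.0, 13, 10.1 and 7.07 CPM in the high-fat diet libraries. Slc43a1 carries large neutral amino acids across the membrane, and its groups were far apart (-3.92 ± 0.27, adjusted p = 8.9e-09). Slc1a3, a glutamate transporter, fell from 497 ± 33.9 to 64 ± 20.2 CPM (-2.96 ± 0.24) and Celsr2, an adhesion receptor of the cadherin family, from 255 ± 50.7 to 30.8 ± 8.64 CPM (-3.05 ± 0.34). Zyg11a (-3.44 ± 0.32), the adhesion molecule Ncam2 (-4.39 ± 0.37), the T-type calcium channel Cacna1g (-3.08 ± 0.48) and Unc93a2 (-3.39 ± 0.55) also fell. So did the dopamine receptor Drd1 (0.935 to 4.95 CPM on chow, 0.165 to 0.487 CPM on the high-fat diet) and the interleukin-31 receptor Il31ra (-3.40 ± 0.67), whose chow library 1 (0.546 CPM) was near the high-fat diet range of 0.174 to 0.411 CPM. Tchh, a hair follicle protein, was at 36.8, 1.15, 1.22 and 1.41 CPM on chow, so that its fold rests on library 1, though each high-fat diet value (0.187 to 0.494 CPM) was below the other chow values too. Without that library its log2 fold change was -1.83 (adjusted p = 0.015).

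In numbers of transcripts, a few abundant genes held much of the response. The CPM gained over all genes that rose summed to 206509, and the 10 genes with the largest gains held 46.1% of it. The gain was led by Scd1, the stearoyl-CoA desaturase that makes monounsaturated fatty acids (chr19:44394451-44407709). Scd1 was at 25461, 14877, 25774 and 15511 CPM in the chow libraries and at 119728, 108946, 101106 and 52456 CPM in the high-fat diet libraries. Library 4, the highest in lymph node transcripts, was nearest to the chow range, and the other 3 lay further up (2.23 ± 0.34, adjusted p = 7.3e-05). Trp53inp2 was at 262, 149.9, 251 and 195 CPM in the chow libraries and at 2095, 2605, 2259.8 and 1321 CPM in the high-fat diet libraries. Trp53inp2, a regulator of autophagy and transcription, had the largest log2 rise among the 12 leading gains after those of Scd2 and Lep (3.27 ± 0.24, adjusted p = 1.3e-08). The other leading gains were Fabp4 (0.74), mt-Nd1 (0.73), Sparc (0.87), mt-Nd2 (0.86), the lipid droplet protein Plin4 (0.68), Actb (0.81), Dgat2 (2.11), Scd2 (3.73), Lep (3.41) and Acsl1 (0.95). Of these, mt-Nd1, mt-Nd2, Fabp4, Plin4 and Acsl1 overlapped between the diets. Fabp4 did not pass the test without chow 2, chow 5, high-fat diet 2, high-fat diet 3 or chow 2 and 5 (adjusted p up to 0.292), nor did mt-Nd1 without chow 2 and 5 (adjusted p = 0.120), nor did mt-Nd2 without chow 2 and 5 (adjusted p = 0.096). Plin4 did not pass the test without chow 2, chow 5, high-fat diet 2, high-fat diet 3 or chow 2 and 5 (adjusted p up to 0.286), nor did Actb without chow 4, chow 5 or high-fat diet 1 and 4 (adjusted p up to 0.085), nor did Acsl1 without chow 2, chow 5, high-fat diet 2 or chow 2 and 5 (adjusted p up to 0.223).

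The losses were led by Cfd, the complement factor D (adipsin) secreted by fat cells, at 19289.7, 11975, 17650.1 and 16316 CPM on chow and 2329, 1789, 1959 and 901 CPM on the high-fat diet (-3.23 ± 0.35). Malat1, an abundant nuclear RNA, was at 13319, 13706, 13358 and 14620.2 CPM against 8059, 7362, 8524 and 8413 CPM (-0.77 ± 0.14, adjusted p = 2.8e-04). Both groups were tight, with no overlap. Car3, a carbonic anhydrase typical of fat cells, fell by less (-0.79 ± 0.25), as did Gsn (-0.59 ± 0.20), the lipoprotein receptor gene Lrp1 (-0.52 ± 0.16), the glutamine synthetase gene Glul (-0.98 ± 0.24), the complement genes C3 (-0.96 ± 0.22) and C4b (-0.64 ± 0.16) and the RNase P RNA Rpph1 (-0.53 ± 0.18). Cyp2e1, described above, and the collagen gene Col1a1, described with the matrix, were among the 12 as well. The remaining one was Col1a2, which codes for the other chain of type I collagen (-1.07 ± 0.33, and -0.39 without chow 2 and 5). Car3 did not pass the test without chow 1, chow 4 or high-fat diet 1 and 4 (adjusted p up to 0.112), nor did Gsn without chow 1, chow 4, high-fat diet 4 or high-fat diet 1 and 4 (adjusted p up to 0.205), nor did Lrp1 without high-fat diet 1 and 4 or chow 2 and 5 (adjusted p up to 0.177). Glul did not pass the test without high-fat diet 1 and 4 (adjusted p = 0.067), nor did C4b without high-fat diet 1 and 4 or chow 2 and 5 (adjusted p up to 0.116), nor did Rpph1 without chow 2, chow 4, chow 5, high-fat diet 1, high-fat diet 3, high-fat diet 1 and 4 or chow 2 and 5 (adjusted p up to 0.165). Col1a2 did not pass the test without chow 2, high-fat diet 1 and 4 or chow 2 and 5 (adjusted p up to 0.470).

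**Figure D3:**
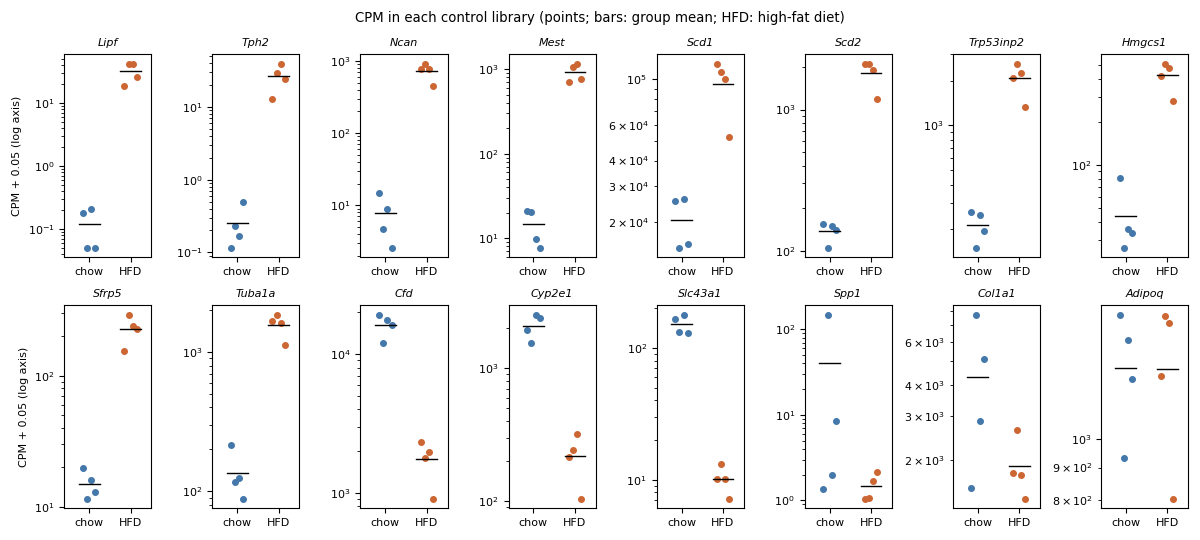
CPM (log axis, with 0.05 added so that 0 can be shown) of 16 genes in each chow and high-fat diet control library, 1 point per library. The groups do not overlap in any panel except those of Spp1, Col1a1 and Adipoq, and in Lipf the chow values lie at or near 0.

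In fatty acid synthesis the largest rises were at its desaturation and acetate steps. Of the genes of fatty acid synthesis, desaturation and elongation, 12 of the 23 tested members rose and 2 fell, with a median log2 fold change of 0.59 against 0.01 over all genes tested. Scd2 was at 154, 105, 149 and 141 CPM in the chow libraries and at 2113, 2100.1, 1894 and 1178 CPM in the high-fat diet libraries. All 4 high-fat diet values of this second desaturase were above 1100 CPM (3.73 ± 0.23, adjusted p = 4.1e-09). Acss2, which makes acetyl-CoA from acetate (2.10 ± 0.25), and Scd3 (1.91 ± 0.32) rose as well. The annotated Acss2 shares 22544 bases with Gss on the opposite strand, where reads cannot be told apart. Mlxipl, which codes for the glucose-sensing factor ChREBP, fell (-1.21 ± 0.27, adjusted p = 0.002), as did Acacb, the acetyl-CoA carboxylase at mitochondria (-0.80 ± 0.24). Acacb did not pass the test without chow 4 or high-fat diet 1 and 4 (adjusted p up to 0.127). In FMRKO mice 13 rose and 1 fell.

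Enzymes that assemble triglyceride rose with them. On the list of triglyceride synthesis and lipid droplets 10 of the 21 tested members rose and 0 fell (median 0.63). Dgat2 was at 674, 176, 665 and 612 CPM in the chow libraries and at 2278, 2671, 2676 and 1587 CPM in the high-fat diet libraries. This enzyme adds the last acyl chain of triglyceride, and its lowest chow library, 2, is also the one rich in macrophage transcripts (2.11 ± 0.32). Agpat2, an earlier step of the same route, rose from 203 ± 96.9 to 1022 ± 245 CPM (2.33 ± 0.31), and Mogat2, an acyltransferase known from the gut, from 0.302 to 0.675 to 2.47 to 5.49 CPM (3.23 ± 0.41). Plin5, a droplet protein of oxidative tissue, rose too (1.79 ± 0.37). In FMRKO mice 9 rose and 0 fell on this list.

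Sterol synthesis was the most uniformly raised pathway among the lists described: of the genes of cholesterol synthesis and sterol handling, 21 of the 27 tested members rose and 0 fell (median 1.29). Its genes are known targets of the SREBP factors, which bind sterol regulatory elements and E-boxes. Hmgcs1, the synthase that makes HMG-CoA, was at 80.5, 26.1, 35.6 and 33.2 CPM on chow and 418, 512, 479.8 and 282 CPM on the high-fat diet (3.27 ± 0.32, adjusted p = 3.0e-07). Insig1, which retains the SREBP machinery in the endoplasmic reticulum, was at 124, 53, 113 and 82.1 and 742, 968, 849 and 518 CPM (3.05 ± 0.28). In both genes chow library 1 was the highest on chow and high-fat diet library 4 the lowest on the high-fat diet, and the groups were apart. Lss, a later enzyme of the route, also rose (2.47 ± 0.18). In FMRKO mice 20 rose and 0 fell.

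The promoters of 2 of these genes are shown because these genes rose most within the list and their promoters hold a match to a motif of those factors, searched on both strands in the 250 bases before and 50 after each annotated start (RefSeq, GRCm38.p6). The sterol regulatory element, spelled TCACNCCAC, is in capitals in the promoter of Hmgcs1 (chr13:119690101-119690400, plus strand), 137 bases before the start. The E-box, spelled CACGTG, is in capitals in that of Insig1 (chr5:28071162-28071461, plus strand), 101 bases before the start.
Hmgcs1: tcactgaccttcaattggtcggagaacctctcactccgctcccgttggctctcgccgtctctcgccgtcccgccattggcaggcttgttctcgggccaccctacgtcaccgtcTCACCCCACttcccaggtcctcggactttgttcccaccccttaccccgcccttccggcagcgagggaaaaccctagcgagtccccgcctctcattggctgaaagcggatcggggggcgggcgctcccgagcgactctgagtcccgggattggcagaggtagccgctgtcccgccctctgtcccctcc
Insig1: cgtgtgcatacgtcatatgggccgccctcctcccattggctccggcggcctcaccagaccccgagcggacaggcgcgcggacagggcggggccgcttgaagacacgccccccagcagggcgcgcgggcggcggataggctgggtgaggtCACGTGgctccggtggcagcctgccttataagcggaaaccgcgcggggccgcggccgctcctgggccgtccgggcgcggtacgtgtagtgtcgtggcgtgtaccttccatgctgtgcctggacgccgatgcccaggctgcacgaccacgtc
Of 16 called list members with a promoter in the table, 1 held the sterol regulatory element in this spelling and 4 held the E-box. Over all 27025 genes with a promoter the shares were 1.44% and 8.09%. A match is a description of the letters and not a binding site.

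In fatty acid uptake the largest rises were in its intracellular and caveolar parts. On the list of fatty acid and lipoprotein uptake 12 of the 21 tested members rose and 3 fell (median 0.58). Fabp5, a fatty acid carrier, rose from 50.1 ± 11.4 to 173 ± 42.5 CPM (1.79 ± 0.21), Acsl3 from 6.03 ± 0.623 to 23.5 ± 5.33 CPM (1.96 ± 0.18), and Cav1 and Cav2, the caveolins of the fat cell surface, by 1.18 ± 0.19 and 1.23 ± 0.20. Slc27a1, a fatty acid transport protein, fell from 1262 ± 318 to 653 ± 185 CPM (-0.95 ± 0.22). On the whole list 13 rose and 0 fell without the lymph node libraries and 8 rose and 2 fell without the macrophage-rich chow libraries. With the diet 13 rose and 1 fell in FMRKO mice. Slc27a1 did not pass the test without high-fat diet 1 and 4 (adjusted p = 0.067).

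Among genes of lipolysis and its hormonal control, the receptors Ptger3 and Adora1, known to restrain it, rose, and the adrenergic receptor Adrb3, which drives it, fell. On this list 7 of the 21 tested members rose and 5 fell. Ptger3 was at 18.2, 10.8, 28.9 and 31.1 CPM in the chow libraries and at 206, 265, 235 and 144 CPM in the high-fat diet libraries. This receptor for prostaglandin E2, known to lower cyclic AMP in fat cells, rose in every library (3.26 ± 0.37). Npr3 was at 259.5, 151, 272 and 199 CPM in the chow libraries and at 1182, 1546, 1620.4 and 1062 CPM in the high-fat diet libraries. Npr3 clears natriuretic peptides, which promote lipolysis (2.62 ± 0.22, adjusted p = 6.3e-08). G0s2, an inhibitor of the lipase ATGL (1.97 ± 0.42), and the adenosine receptor Adora1 (1.60 ± 0.32) rose as well. Adrb3 was at 895, 582, 523 and 626 CPM in the chow libraries and at 386, 320.2, 141 and 84.2 CPM in the high-fat diet libraries. High-fat diet libraries 3 and 4 were lowest for this main beta-adrenergic receptor of rodent fat (-1.50 ± 0.39, adjusted p = 0.007). The lactate receptor Hcar1 (-0.90 ± 0.27), itself anti-lipolytic, and the natriuretic peptide receptor Npr1 (-0.79 ± 0.17) also fell. On leaving out the lymph node libraries 7 rose and 3 fell, and in FMRKO mice 7 rose and 1 fell. Hcar1 did not pass the test without chow 1, high-fat diet 1 and 4 or chow 2 and 5 (adjusted p up to 0.129).

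Genes of fuel use rose by smaller factors. In fatty acid oxidation 13 of the 26 tested members rose and 1 fell (median 0.60), among them Acaa1b (2.29 ± 0.35), Pdk4 (1.25 ± 0.36), Slc25a20 (1.07 ± 0.18) and Cpt1a, the gate of mitochondrial fatty acid import (1.14 ± 0.16). The coactivator Ppargc1a fell (-0.79 ± 0.29, adjusted p = 0.047). In glucose uptake, glycolysis and pyruvate handling 14 of the 28 tested members rose and 1 fell (median 0.42), led by Pgd (1.23 ± 0.14) and G6pdx (1.19 ± 0.14), the dehydrogenases of the pentose phosphate pathway that supply NADPH. The lactate carrier Slc16a1 (1.11 ± 0.22) and the liver-type phosphofructokinase Pfkl (1.00 ± 0.16) rose, and the glucose transporter Slc2a3 fell (-0.87 ± 0.31). Branched-chain amino acid catabolism went the other way, where 1 of the 22 tested members rose and 5 fell, with Bcat2, its first enzyme (-1.30 ± 0.23), Ppm1k (-0.94 ± 0.14), Ivd (-0.71 ± 0.22) and Aldh6a1 (-0.68 ± 0.21) lower. The oxidation counts moved with the macrophage-rich chow libraries: without them 3 genes of fatty acid oxidation rose and 1 fell, and 8 and 2 of glucose use. On the amino acid list 2 rose and 2 fell without the lymph node libraries. The FMRKO libraries gave counts in which 11 rose and 1 fell for oxidation, 11 rose and 1 fell for glucose use and 2 rose and 2 fell for branched-chain catabolism. Pdk4 did not pass the test without chow 5, high-fat diet 2 or chow 2 and 5 (adjusted p up to 0.162), nor did Ppargc1a without chow 1, chow 4, chow 5, high-fat diet 1, high-fat diet 2, high-fat diet 4 or high-fat diet 1 and 4 (adjusted p up to 0.278), nor did Slc2a3 without chow 4, chow 5, high-fat diet 1, high-fat diet 2, high-fat diet 3 or chow 2 and 5 (adjusted p up to 0.127). Ivd did not pass the test without chow 1, chow 4 or high-fat diet 1 and 4 (adjusted p up to 0.077), nor did Aldh6a1 without chow 1, chow 4 or high-fat diet 1 and 4 (adjusted p up to 0.142).

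Ucp1, the uncoupling protein of brown and beige fat, was at 2.89, 0.121, 0.237 and 0 CPM on chow and 37.6, 36.2, 13.7 and 5.35 CPM on the high-fat diet (4.79 ± 0.97, adjusted p = 9.4e-04). The groups did not overlap, but chow library 1 held most of the chow signal (without it the log2 fold change was 7.52) and the high-fat diet values spread widely. Among the thermogenic genes listed 7 of the 17 tested members rose and 1 fell (median 1.03). Otop1 (2.86 ± 0.66) and Pm20d1 (1.44 ± 0.35) were among the rises, and the coactivator Ppargc1a was the fall. Without chow 2 and 5 the counts were lower, as 2 rose and 2 fell, and with the diet 4 rose and 2 fell in FMRKO mice, where the median was 0.18. Otop1 did not pass the test without chow 2 and 5 (adjusted p = 0.054), nor did Pm20d1 without chow 2 and 5 (adjusted p = 0.079), nor did Ppargc1a without chow 1, chow 4, chow 5, high-fat diet 1, high-fat diet 2, high-fat diet 4 or high-fat diet 1 and 4 (adjusted p up to 0.278).

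Large multi-subunit machines rose together by modest factors. Of the proteasome, which degrades ubiquitinated proteins, 29 of the 39 tested members rose and 0 fell (74.4% and 0%, median 0.47), led by Psmb5 (1.00 ± 0.16), Psmd10 (0.86 ± 0.18) and Psmd8 (0.85 ± 0.11). Of the mitochondrial ribosomal proteins, 46 of the 76 tested members rose and 0 fell (60.5% and 0%, median 0.40), with Mrps6 leading (10.6 ± 3.35 to 32.2 ± 8.68 CPM, 1.60 ± 0.20). These shares stand against 15.3% and 13.9% over all genes. The annotated Mrps6 shares 29152 bases with another tested gene on the same strand, and how reads there were counted is not described. The counts were lower without chow libraries 2 and 5, where 19 proteasome and 17 mitochondrial ribosomal genes rose and 0 fell. Higher calls over all genes also went from 3013 to 1906 without those libraries. Without the lymph node libraries 33 and 54 rose. In FMRKO mice 30 rose and 0 fell in the former and 44 rose and 0 fell in the latter. Of the cytosolic ribosomal protein genes 25 of the 78 tested members rose and 0 fell, among them Rpl29 (0.70 ± 0.21) and Rpl37 (0.63 ± 0.16). Of these, counts of 15 without the lymph node libraries and 10 without chow 2 and 5 rose, and in FMRKO mice 11 rose and 1 fell. Rpl29 did not pass the test without chow 2, high-fat diet 1 and 4 or chow 2 and 5 (adjusted p up to 0.159), nor did Rpl37 without chow 2 and 5 (adjusted p = 0.072).

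The cytoskeleton and caveolae also moved upward, where 13 of the 24 tested members rose and 0 fell (median 0.51). Tuba1a was at 216, 117, 124 and 87.9 CPM in the chow libraries and at 1679, 1859, 1618 and 1119 CPM in the high-fat diet libraries. This alpha tubulin, best known from growing neurons, rose in every library (3.52 ± 0.30, adjusted p = 6.3e-08). Cavin3, a coat protein of caveolae, rose from 68.4 ± 8.19 to 217 ± 47.3 CPM (1.67 ± 0.16). Among tubulins 6 of the 16 tested members rose and 1 fell, with Tubg1 (1.18 ± 0.17) and Tubb2a (1.17 ± 0.18) higher and Tuba8 lower (-2.25 ± 0.45). On the list of lysosome and autophagy genes 7 of the 23 tested members rose and 0 fell, with Npc2, which carries cholesterol out of lysosomes (1.23 ± 0.13), and the protease Ctsd (1.12 ± 0.21) at the top. With the diet 13 rose and 1 fell of the cytoskeleton and caveolae list in FMRKO mice, 6 rose and 2 fell of the tubulins and 11 rose and 0 fell of the lysosome list.

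**Figure D4:**
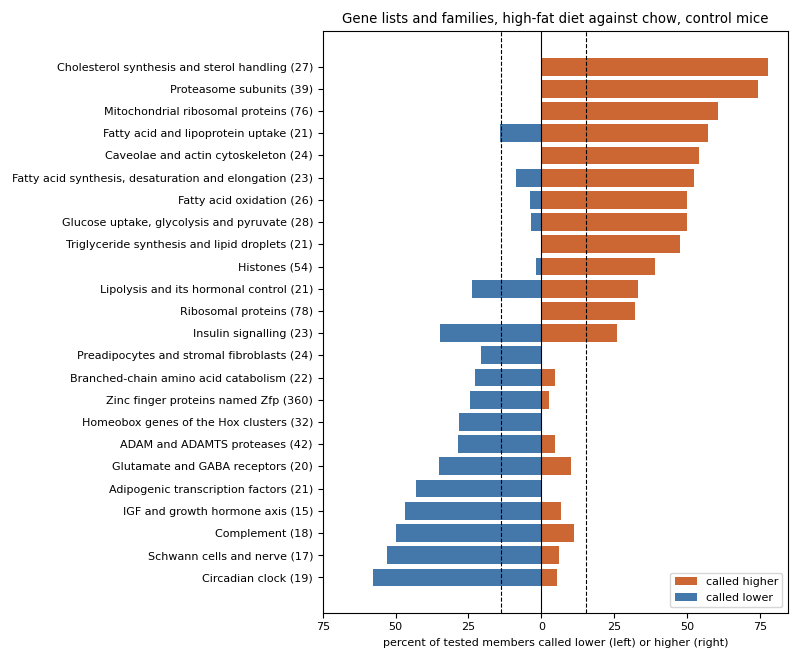
Percent of the tested members of 24 gene lists and families called higher (right) and lower (left) on the high-fat diet at an adjusted p of 0.05, with the number tested beside each name. The dashed lines are the shares over all 19717 genes, 15.3% higher and 13.9% lower; cholesterol synthesis (77.8%) and the proteasome (74.4%) reach furthest to the right and the circadian clock (57.9%) furthest to the left.

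Several regulators of the fat cell program fell. Of the adipogenic transcription factors 0 of the 21 tested members rose and 9 fell (median -0.28), with Klf15 (101 ± 26.6 to 35 ± 8.66 CPM, -1.53 ± 0.27), Klf5 (-1.38 ± 0.39), Ebf2 (-0.96 ± 0.17) and Tcf7l2 (-0.76 ± 0.16) showing the largest falls. With the lymph node libraries left out 1 rose and 5 fell, and in FMRKO mice 2 rose and 6 fell. Klf5 did not pass the test without high-fat diet 1 and 4 or chow 2 and 5 (adjusted p up to 0.123). Pparg, the master regulator of fat cells, was at 260.1, 123, 212 and 178 CPM on chow and 152, 213, 221 and 114 CPM on the high-fat diet (-0.14 ± 0.24, adjusted p = 0.682). Adipoq, which codes for adiponectin, was at 1296 ± 279 and 1289 ± 353 CPM (-0.01 ± 0.21, adjusted p = 0.979). The floxed gene Nr3c2 was at 23.5 ± 4.56 and 20.8 ± 2.95 CPM (-0.17 ± 0.20, adjusted p = 0.536). None of these 3 passed the test, which does not show that they were equal.

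Insulin signalling changed in both directions, where 6 of the 23 tested members rose and 8 fell. Irs1 was at 321, 214, 224 and 245 CPM in the chow libraries and at 119, 104, 90.1 and 55.5 CPM in the high-fat diet libraries. High-fat diet library 4 was the lowest for this main substrate of the insulin receptor, and no high-fat diet library reached the lowest on chow (-1.44 ± 0.24, adjusted p = 1.3e-04). Insr, the receptor itself (-0.77 ± 0.17), Irs2 (-0.76 ± 0.20) and the imprinted adaptor Grb10 (-1.03 ± 0.14) fell. Grb14, an adaptor that binds and inhibits the insulin receptor, rose from 24.8 ± 17 to 80.5 ± 22.9 CPM (1.69 ± 0.34), and so did Deptor, an inhibitor of mTOR (0.96 ± 0.19). Without the macrophage-rich chow libraries 3 rose and 5 fell on this list, and 5 rose and 5 fell in FMRKO mice. Irs2 did not pass the test without high-fat diet 1 and 4 (adjusted p = 0.072).

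Secreted signals and their inhibitors were reshaped gene by gene. Sfrp5 was at 19.8, 11.4, 16 and 12.9 CPM in the chow libraries and at 154, 293, 238 and 226 CPM in the high-fat diet libraries. This secreted Wnt inhibitor of fat cells rose in every library (3.92 ± 0.28, adjusted p = 1.0e-08), and so did Nkd1, an intracellular Wnt inhibitor (6.91 ± 1.27 to 40.5 ± 7.24 CPM, 2.55 ± 0.22), and the ligand Wnt8b (3.29 ± 0.40). On the Wnt modulator list as a whole 4 of the 23 tested members rose and 3 fell, close to the background, and in FMRKO mice 3 rose and 0 fell. Of the fibroblast growth factors and their receptors 5 of the 14 tested members rose and 4 fell, and in FMRKO mice 4 rose and 2 fell. Fgf1, a growth factor known to be induced by feeding in fat, went from 8.03, 5.58, 9.63 and 7.0 to 53, 59.5, 69.4 and 41.9 CPM (2.89 ± 0.19, adjusted p = 5.5e-09), and Fgf13 rose by 2.76 ± 0.23. Fgf21, a hormone of fasting and lipid excess, rose from 0 to 0.321 CPM on chow, with values of 1.05 to 2.15 CPM on the high-fat diet (3.60 ± 0.81). Fgf2 (-1.23 ± 0.22) and the receptor Fgfr1 (-0.73 ± 0.15) fell.

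In the BMP and TGF-beta family 4 of the 29 tested members rose and 8 fell, with Bmp3 (2.05 ± 0.26), the activin inhibitor Fstl3 (2.04 ± 0.34), the BMP inhibitor Nog (1.55 ± 0.37) and Inhbb (1.45 ± 0.23) higher and Chrdl1 (-1.31 ± 0.17) and Acvr2b (-1.13 ± 0.16) lower. On leaving out the lymph node libraries 4 rose and 3 fell, and 5 rose and 4 fell in FMRKO mice. The insulin-like growth factor and growth hormone axis fell, where 1 of the 15 tested members rose and 7 fell (median -0.56), with Pappa, a protease that frees IGF (-1.78 ± 0.35), and the binding proteins Igfbp6 (-1.05 ± 0.22) and Igfbp7 (-0.86 ± 0.11) lower. In FMRKO mice 1 rose and 2 fell on this list. Of the imprinted growth genes 4 of the 17 tested members rose and 4 fell, and in FMRKO mice 5 rose and 1 fell. Beside Mest and Copg2, Peg3 rose (0.71 ± 0.22), and Dlk1 (-1.63 ± 0.45), Meg3 (-1.39 ± 0.31) and Cdkn1c (-1.38 ± 0.19) fell. Vegfa, the main growth factor of endothelium, fell from 475 ± 63.1 to 208 ± 50.8 CPM (-1.19 ± 0.21). Peg3 did not pass the test without chow 5, high-fat diet 2 or chow 2 and 5 (adjusted p up to 0.206), nor did Dlk1 without high-fat diet 1 and 4 (adjusted p = 0.060), nor did Meg3 without chow 2 and 5 (adjusted p = 0.164).

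Calls on matrix and macrophage genes moved with chow libraries 2 and 5 and with the lymph node libraries. Of the matrix remodelling enzymes 3 of the 25 tested members rose and 11 fell, but 3 rose and 3 fell without the macrophage-rich chow libraries and 3 and 1 without the lymph node libraries, and in FMRKO mice 5 rose and 2 fell. Of the fibrillar and basement membrane genes 2 of the 31 tested members rose and 7 fell. Without chow 2 and 5 the counts were 4 and 1, and without the lymph node libraries 5 and 1. In FMRKO mice 8 rose and 1 fell. Col1a1 was at 1539, 7725, 2882 and 5095 CPM in the chow libraries and at 1774, 2637, 1735 and 1393 CPM in the high-fat diet libraries. Chow libraries 2 and 5 hold the high chow values, and the log2 fold change went from -1.19 ± 0.40 to -0.21 without them (adjusted p = 0.750). Spp1 was at 1.32, 149, 1.93 and 8.5 CPM in the chow libraries and at 0.987, 1.02, 1.63 and 2.09 CPM in the high-fat diet libraries. The fall of this osteopontin gene of lipid-associated macrophages rests on chow library 2 (-4.80 ± 1.26 in all libraries, -0.16 without chow 2 and 5). Gpnmb, another such marker, was called lower in all libraries (-1.86) and had the opposite sign without them (0.52, adjusted p = 0.453), as had Timp1 (-1.74 and 0.30, adjusted p = 0.730). Col1a1 did not pass the test without chow 2, chow 5, high-fat diet 1, high-fat diet 3, high-fat diet 4, high-fat diet 1 and 4 or chow 2 and 5 (adjusted p up to 0.750), nor did Spp1 without chow 2, high-fat diet 1 and 4 or chow 2 and 5 (adjusted p up to 0.930), nor did Gpnmb without chow 2, high-fat diet 1, high-fat diet 1 and 4 or chow 2 and 5 (adjusted p up to 0.453). Timp1 did not pass the test without chow 2, high-fat diet 1, high-fat diet 2, high-fat diet 3, high-fat diet 4, high-fat diet 1 and 4 or chow 2 and 5 (adjusted p up to 0.876). On the list of lipid-associated macrophages 3 of the 20 tested members rose and 3 fell in all libraries. There 9 rose and 0 fell without chow 2 and 5, and 4 and 0 without the lymph node libraries. In FMRKO mice 6 rose and 0 fell.

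Some matrix genes did not follow those libraries. Lox, which crosslinks collagen, rose from 165 ± 49.6 to 428 ± 104 CPM (1.37 ± 0.23, and 1.41 without chow 2 and 5). Sparc (0.87 ± 0.19) and the basement membrane collagen Col4a2 (0.73 ± 0.17) rose, and in FMRKO mice they did as well (1.24 and 0.90). Precursor and fibroblast markers fell or did not pass, where 0 of the 24 tested members rose and 5 fell: Pdgfra, a receptor of fat cell precursors, went from 181 ± 35.8 to 79.3 ± 11.1 CPM (-1.19 ± 0.16), with Gli1 (-1.22 ± 0.28), Vit (-1.02 ± 0.25) and Wnt2 (-1.44 ± 0.44) also lower. Without the lymph node libraries 2 rose and 3 fell on that list, and 2 rose and 1 fell in FMRKO mice. Of ADAM and ADAMTS proteases 2 of the 42 tested members rose and 12 fell (4.8% and 28.6%), including Adam33 (-1.55 ± 0.27) and Adamts14 (-1.42 ± 0.25, and -0.91 without chow 2 and 5). The FMRKO counts for these proteases were even, as 5 rose and 5 fell, where 15.2% of all genes rose and 9.15% fell. Vit did not pass the test without high-fat diet 1 and 4 (adjusted p = 0.061), nor did Wnt2 without chow 5, high-fat diet 1 and 4 or chow 2 and 5 (adjusted p up to 0.163).

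Many complement genes fell. On this list 2 of the 18 tested members rose and 9 fell (median -0.53), with C2 (16.7, 26.3, 21.7 and 28 CPM on chow, 5.76, 7.29, 5.0 and 4.68 CPM on the high-fat diet, -2.03 ± 0.20) second to Cfd. The regulator Cd59a (1.84 ± 0.21) and the terminal component C6 (1.60 ± 0.46) rose. With the lymph node libraries left out 2 rose and 3 fell, and without chow 2 and 5 it was 1 and 4. The FMRKO libraries had fewer falls on this list (2 rose and 3 fell). Over all genes, too, falls were fewer in FMRKO mice (9.15% against 13.9% in controls). A pair of proteases of neutrophil granules fell too, and their genes neighbour Cfd on chromosome 10. Prtn3 was at 31.9, 28.1, 21.1 and 32.8 CPM in the chow libraries and at 0.699, 0.662, 1.01 and 1.53 CPM in the high-fat diet libraries. Elane was at 3.63, 1.72, 2.92 and 3.35 CPM in the chow libraries and at 0.37, 0.265, 0.591 and 0.449 CPM in the high-fat diet libraries. Prtn3 lies at chr10:79874476-79883174, Elane at chr10:79886312-79888216 and Cfd at chr10:79890853-79892656, and each was lower in all 4 high-fat diet libraries (-4.85 ± 0.46, -2.77 ± 0.54 and -3.23 ± 0.35). S100a8, a marker of neutrophils themselves, was at 0.0881 to 0.996 CPM on chow and 1.65 to 5.27 CPM on the high-fat diet (2.83 ± 0.68). C6 did not pass the test without chow 2 and 5 (adjusted p = 0.10). The annotated Prtn3 shares 159 bases with Plppr3 on the opposite strand, where reads cannot be told apart.

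On the list of inflammatory mediators 5 of the 22 tested members rose and 1 fell (median -0.01). The shares, 22.7% and 4.5%, stand against 15.3% and 13.9% over all genes. In FMRKO mice 5 rose and 0 fell. Lbp, which binds bacterial lipopolysaccharide, went from 48.2, 50.2, 66 and 49.4 to 272, 354, 421 and 248 CPM (2.60 ± 0.26, adjusted p = 3.9e-07), and the plasma protein genes Hp (0.94 ± 0.26) and Orm1 (1.13 ± 0.25) rose less. Hp did not pass the test without high-fat diet 3 (adjusted p = 0.069), nor did Orm1 without chow 2 and 5 (adjusted p = 0.051), nor did Ccl5 without high-fat diet 1 and 4 or chow 2 and 5 (adjusted p up to 0.254). Timd4 did not pass the test without chow 1, chow 2, chow 4, chow 5, high-fat diet 1, high-fat diet 4, high-fat diet 1 and 4 or chow 2 and 5 (adjusted p up to 0.634). Calls on lymphocyte genes moved with the lymph node libraries: on that list 15 of the 22 tested members rose and 0 fell, and the median log2 fold change of 4.01 was 0.74 without them. The chemokine Ccl5 (43.9, 12.6, 11.5 and 72.2 CPM on the high-fat diet) and Timd4, a marker of resident macrophages (10.0, 4.2, 2.02 and 40.0 CPM), were highest in the same libraries.

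Several markers of nerve sheath fell, while S100b rose. On the Schwann cell and nerve list 1 of the 17 tested members rose and 9 fell (median -0.96), among them Sox10 (4.34, 3.26, 4.5 and 6.34 CPM on chow, 1.44, 2.3, 1.36 and 1.12 CPM on the high-fat diet, -1.57 ± 0.38), a transcription factor of Schwann cells, and Mal (-1.93 ± 0.44). S100b rose in every library (1.64, 1.48, 3.55 and 3.57 to 19, 20.1, 15.8 and 9.13 CPM, 2.65 ± 0.41), and it is a gene that fat cells express too. The mean level of the list was 2.70 to 3.29 on chow and 2.17 to 2.39 on the high-fat diet (mean log2 CPM). On leaving out the lymph node libraries 1 rose and 4 fell, and without chow 2 and 5 it was 1 and 6. Fewer calls were made in FMRKO mice, where 2 rose and 2 fell (median -0.40). The share of all genes that fell was also lower there, at 9.15% against 13.9% in controls. Slc6a2, the noradrenaline transporter of sympathetic nerves, was at 0.434 to 2.74 CPM and 0.123 to 0.53 CPM (-2.65 ± 0.70). Sox10 did not pass the test without high-fat diet 1 and 4 (adjusted p = 0.055), nor did Slc6a2 without high-fat diet 1 and 4 or chow 2 and 5 (adjusted p up to 0.089).

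Receptors and channels named for neurons changed one by one. Of potassium channels 8 of the 64 tested members rose and 14 fell, with Kcnj14 and Kcnh2 (2.94 ± 0.53) higher and Kcna1 (22.5, 18.8, 24.2 and 29 to 5.97, 4.46, 2.92 and 1.12 CPM, -2.71 ± 0.35) and Kcnv2 (-3.19 ± 0.77) lower. Of glutamate and GABA receptors 2 of the 20 tested members rose and 7 fell, with Grik3 falling (-2.26 ± 0.51) while Grid1 rose. Of cadherins and protocadherins 4 of the 50 tested members rose and 13 fell, where Pcdh9 (-2.38 ± 0.42) fell and Pcdh7 (1.22 ± 0.15) rose. The shares over all genes were 15.3% higher and 13.9% lower. Without the lymph node libraries 9 rose and 11 fell of the potassium channels. The counts were then 2 and 4 for the glutamate and GABA receptors and 3 and 7 for the cadherins. The falls did not outnumber the rises in FMRKO mice, where 9 rose and 7 fell of the potassium channels. The counts there were 2 and 2 for the glutamate and GABA receptors and 5 and 2 for the cadherins. Over all genes 15.2% rose and 9.15% fell in FMRKO mice.

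Genes of the circadian clock were mostly lower, where 1 of the 19 tested members rose and 11 fell (median -0.67). The labels do not state the time of day of collection. Npas2, a partner of BMAL1, fell without overlap (-1.28 ± 0.41). Ciart was at 4.53, 4.98, 16 and 5.2 CPM in the chow libraries and at 1.93, 2.52, 2.85 and 3.1 CPM in the high-fat diet libraries. Chow library 4 stood above the other chow libraries for Ciart, a repressor of the clock, and in Per1 as well (369.9 CPM against 165 to 189 CPM). Without it Ciart's log2 fold change went from -1.56 to -0.91. The annotated Ciart overlaps C920021L13Rik on the opposite strand. Npas2 did not pass the test without chow 1, high-fat diet 4 or high-fat diet 1 and 4 (adjusted p up to 0.086), nor did Per1 without chow 4, high-fat diet 1, high-fat diet 3, high-fat diet 4 or high-fat diet 1 and 4 (adjusted p up to 0.287), nor did C920021L13Rik without chow 2 and 5 (adjusted p = 0.068). The promoter of Ciart (chr3:95882179-95882478, minus strand) is shown because it holds 3 E-boxes (CACGTG, in capitals), the element bound by CLOCK and BMAL1, starting 116, 58 and 44 bases before the start.
Ciart: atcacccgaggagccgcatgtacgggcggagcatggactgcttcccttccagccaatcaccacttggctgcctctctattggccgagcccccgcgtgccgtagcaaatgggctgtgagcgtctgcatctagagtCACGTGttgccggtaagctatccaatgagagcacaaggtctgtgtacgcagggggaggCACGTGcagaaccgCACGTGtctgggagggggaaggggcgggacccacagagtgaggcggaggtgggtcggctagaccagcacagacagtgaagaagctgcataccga
The E-box was present in 4 of 11 called clock genes with a promoter in the table, against 8.09% of all genes with one. Without the lymph node libraries 1 rose and 5 fell on the clock list, and 1 rose and 9 fell in FMRKO mice.

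Antioxidant genes split by enzyme: 5 of the 22 tested members rose and 5 fell, and in FMRKO mice 5 rose and 3 fell. Gpx3, the secreted glutathione peroxidase, was at 887, 706, 852 and 995 CPM on chow and 184, 195, 218 and 155 CPM on the high-fat diet (-2.19 ± 0.20, adjusted p = 1.4e-07). Sod3 (1.36 ± 0.17), Sod2 (1.10 ± 0.18), Gss (1.24 ± 0.15) and Prdx6 (0.93 ± 0.17) rose, and Gpx8 (-1.14 ± 0.26) and Gsr (-0.69 ± 0.17) fell. The annotated Gss overlaps Acss2, described above, on the opposite strand. Xbp1, the factor of the unfolded protein response, fell from 209 ± 24.9 to 94.1 ± 15.4 CPM (-1.15 ± 0.15), and Ddit3, which codes for CHOP, rose by 0.69 ± 0.13. In all, 5 of the 23 tested members rose and 4 fell on that list, and 4 rose and 2 fell in FMRKO mice. Gsr did not pass the test without high-fat diet 1 and 4 (adjusted p = 0.065).

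Classes of genes that no pathway list covers also leaned to one side. Of zinc finger genes named Zfp 9 of the 360 tested members rose and 88 fell (2.5% and 24.4%, median -0.19), and in FMRKO mice 5 rose and 75 fell. Of the Hox genes, which carry the positional identity of a depot, 0 of the 32 tested members rose and 9 fell, with Hoxa3 (-0.99 ± 0.17), Hoxa2 (-0.95 ± 0.27) and Hoxc4 (-0.92 ± 0.21) lowest, and in FMRKO mice 1 rose and 5 fell. Non-coding classes were lower far more often than higher: 2.7% of 957 antisense transcripts rose and 18.8% fell, and 4.0% of 523 long intergenic RNAs rose and 18.2% fell. Among protein-coding genes 18.5% rose and 14.3% fell. In FMRKO mice 18 antisense transcripts rose and 101 fell, as did 20 and 68 long intergenic RNAs. Histone genes were higher, where 21 of the 54 tested members rose and 1 fell, but 6 rose and 1 fell without the lymph node libraries and 32 rose and 1 fell without the macrophage-rich chow libraries, and 9 rose and 1 fell in FMRKO mice. Of zinc finger genes, 4 rose and 58 fell without the macrophage-rich chow libraries.

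The diet response of FMRKO mice was measured in separate libraries. Their chow titles, too, begin with a further number that their high-fat diet titles lack. If it marks a batch, it cannot be told apart from the diet in either genotype. In FMRKO mice 2999 genes rose (15.2%) and 1805 fell (9.15%), 24.4% of those tested in all. Of the genes that rose in controls 70.4% also rose in FMRKO mice, which is 70.7% of the FMRKO list, and of those that fell 42.5% did, which is 64.6% of the FMRKO list. Opposite calls numbered 2 and 1. Of the 5758 calls in controls 93.7% had the same sign in FMRKO mice. The same share over all genes tested is not given. Over all 19717 genes, which are not independent replicates, the log2 fold changes correlated at 0.31 (Pearson's r) and 0.46 (Spearman's rho). Among genes named above, values close in both genotypes, controls first, were those of Scd2 3.73 and 3.77, Sfrp5 3.92 and 4.01, Tuba1a 3.52 and 3.71, Trp53inp2 3.27 and 3.13, Hmgcs1 3.27 and 3.24. Values further apart were those of Celsr2 (-3.05 and -2.18), Cfd (-3.23 and -1.87), Cacna1g (-3.08 and -1.03), Wif1, a Wnt inhibitor (3.47 and 0.78), and Tchh (-4.84 and 0.13).

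The difference between the genotypes was tested directly. In edgeR 0 genes passed, with a smallest adjusted p of 0.111, and DESeq2 called 13. An unadjusted p under 0.05 in edgeR was found for 1924 genes, where 986 are expected by chance. That 0 genes passed does not show that the responses were equal. The adjusted p of the difference was 0.481 for Cfd, Cacna1g, Wif1 and Tchh and 0.518 for Celsr2. The lymph node list stood at 4.03 to 5.96 (mean log2 CPM) in 2 chow and 2 high-fat diet FMRKO libraries and at 0.81 to 1.17 in the other 4. The muscle list stood at 8.19 in 1 chow FMRKO library and at -0.59 to 0.99 in the other 7. With the diet on the lymph node list 0 rose and 0 fell and on the muscle list 0 rose and 13 fell in FMRKO mice, and the part of these transcripts in the overlap was not tested.

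**Figure D5:**
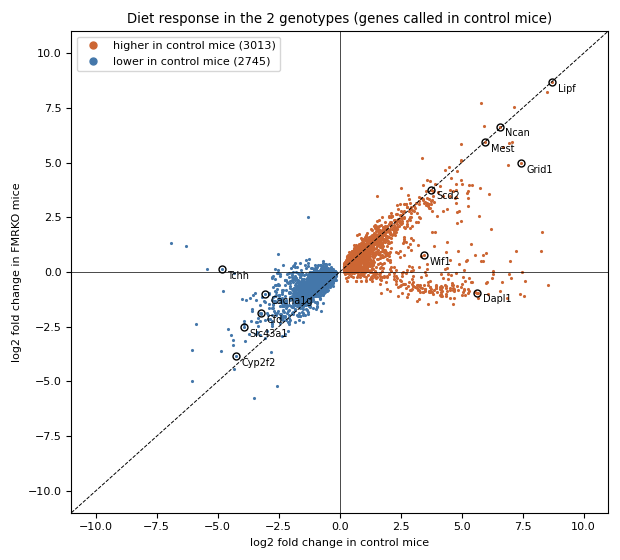
Log2 fold change between high-fat diet and chow in control mice (horizontal) and in FMRKO mice (vertical) for the 5758 genes called in controls, with the line of equal change dashed. Most points (93.7%) share the sign; the labelled genes are described in the text.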

How the data were processed

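Total RNA was sequenced after ribosomal depletion. The authors deposited counts per gene, with STAR 2.5.1a, featureCounts 1.4.6p-5 and GRCm38 named in the submitters' processing notes. Beside them the authors deposited CPM and RPKM computed from those counts, per the file headers, of which the CPM served to check the counts and the RPKM were not used further. Strand use, the annotation release and multi-mapped reads are not described there. Annotation symbols were found for 97.3% of 41388 features.

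The counts were fitted with edgeR 4.0.16 in R 4.3.3 (minimum count 10, TMM scaling, quasi-likelihood test) over all 24 libraries in 6 groups, which share 1 estimate of the spread (18 residual degrees of freedom), and the diet contrast within control mice was adjusted by Benjamini-Hochberg over 19717 genes at a threshold of 0.05. Values are TMM-scaled CPM, and ± after a log2 fold change is its standard error, after a mean CPM the SD (n = 4). The script was tested on simulated data. No library pair agreed within sampling noise. No label ties a library to its own animal, and the spread behind each p-value may be technical. Alternatives were RLE scaling, other filters, fewer libraries, marker covariates, a replicate block and DESeq2 1.42.0. Leaving out chow 2 and 5 was added after seeing the data.

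Gene names followed a rule: the 15 largest non-overlapping changes per direction at 2 CPM or more, the 12 largest CPM gains and losses, and up to 4 called members of each list and 3 of each family. Predicted genes and immunoglobulin segments were counted and not named, and some annotated neighbours were named for their overlap. Of 197 named genes 46 overlap another tested gene in the annotation, and not all of these overlaps are stated. Some named genes' results are not reported here. The members and lists were chosen with earlier results of these data known.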

Additional observations from a re-analysis of the deposited data

Results flagged for a closer look

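In 16 of the 339 gene-by-diet groups of 4 libraries examined, 1 library lay so far from the other 3 that its gap to them exceeded the 5% critical share of the group's range (Dixon's test). Chance flags about 1 such group in 20. Chow 1 stood above the other libraries of its diet for Tchh (36.8 CPM, the others 1.15 to 1.41). Chow 1 stood below the other libraries of its diet for Il31ra (0.546 CPM, the others 3.65 to 4.55), Pdgfra (128 CPM, the others 194 to 206) and Rpph1 (4899 CPM, the others 5574 to 5719.8). Chow 2 stood below the other libraries of its diet for Dgat2 (176 CPM, the others 612 to 674) and Nkd1 (5.01 CPM, the others 7.4 to 7.65). Chow 4 stood above the other libraries of its diet for Ciart (16 CPM, the others 4.53 to 5.2), Lbp (66 CPM, the others 48.2 to 50.2) and Per1 (369.9 CPM, the others 165 to 189). High-fat diet 1 stood below the other libraries of its diet for Tmem132b (6.34 CPM, the others 29.2 to 34.2). High-fat diet 4 stood below the other libraries of its diet for Aldh6a1 (130.1 CPM, the others 232 to 248), Cdkn1c (5.76 CPM, the others 8.35 to 8.72), Fgfr1 (179 CPM, the others 272 to 292), Insr (136 CPM, the others 195 to 202), Por (296 CPM, the others 508 to 549) and Wdr95 (11.5 CPM, the others 14.5 to 14.8). Of the 16, high-fat diet library 4, the highest on the lymph node list, held 6, chow library 1 held 4 and chow library 4 held 3.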

How the results depend on the processing

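Leaving out 1 library at a time gave 2106 to 2976 genes higher and 2220 to 3094 lower (3013 and 2745 with all), with 630 to 883 at least 2-fold higher and 781 to 1015 at least 2-fold lower. A fit to the 8 libraries alone called 1779 higher and 1679 lower. Without the lymph node libraries the counts were 2910 and 2122, and without lymph node and muscle libraries together 2026 and 1244. Without chow 2 and 5, an alternative chosen after seeing the data, they were 1906 and 1745. DESeq2 called 3565 and 2892. The difference between genotypes was called for 0 genes by edgeR and for 13 by DESeq2. Leaving aside the fit with high-fat diet library 2 alone, it was called for 0 under the other alternatives it was run with. The cause was not tested. Library numbers are shared by chow and high-fat diet libraries 1, 2 and 4, and deviations of same-numbered libraries correlated at 0.115, 0.144 and -0.047. With no chance distribution beside them, these values cannot decide whether the numbers pair the libraries. The fit with the replicate block called 2361 higher and 2255 lower (662 and 711 at least 2-fold). Of 194 called genes named here, 112 kept their call under all 19 alternatives, and 3 more kept it under each alternative that tested them. Gpnmb and Timp1 changed sign without chow 2 and 5 (0.52 and 0.30). The spread, a biological coefficient of variation of 33.7%, limits what 4 libraries per diet can show.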

Other observations

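Families that the report does not cover held calls in both directions. Of solute carriers 42 of the 280 tested members rose and 45 fell (15% and 16.1%, median 0.02), a share near that of all genes. Of G protein-coupled receptors named Gpr or Adgr 5 of the 84 tested members rose and 14 fell (6% and 16.7%), with Adgrb1, an adhesion receptor best known from brain, at 0.578, 0.362, 0.474 and 0.264 CPM on chow and 0.247, 0.0442, 0.0695 and 0 CPM on the high-fat diet (-2.19 ± 0.64, and -3.34 without high-fat diet 1). On the list of xenobiotic and steroid metabolism 7 of the 39 tested members rose and 4 fell, among them Por, the reductase that supplies electrons to P450 enzymes (-0.61 ± 0.22), Adh1 (0.80 ± 0.24) and Aldh1a1, an enzyme of retinoic acid synthesis (0.80 ± 0.22). On the list of endothelium, pericytes and smooth muscle 3 of the 23 tested members rose and 1 fell, with Cdh5 (0.51 ± 0.17) and Pecam1 (0.36 ± 0.10), both of endothelium, and Acta2 of smooth muscle (0.97 ± 0.34). Of mitotic genes 1 of the 19 tested members rose and 0 fell in all libraries, and 13 rose and 0 fell without chow 2 and 5, the libraries of which chow 2 had the highest mitotic level. The FMRKO counts were those in which 49 rose and 25 fell of the solute carriers, 11 rose and 7 fell of the receptors, 7 rose and 3 fell of xenobiotic metabolism, 6 rose and 1 fell of the endothelial list and 2 rose and 0 fell of the mitotic genes. Por did not pass the test without chow 1, chow 4, high-fat diet 4 or high-fat diet 1 and 4 (adjusted p up to 0.223), nor did Adh1 without chow 2, chow 5, high-fat diet 2 or chow 2 and 5 (adjusted p up to 0.266), nor did Aldh1a1 without chow 2 and 5 (adjusted p = 0.130). Cdh5 did not pass the test without chow 2, chow 4, chow 5, high-fat diet 2, high-fat diet 3 or chow 2 and 5 (adjusted p up to 0.141), nor did Pecam1 without high-fat diet 4 (adjusted p = 0.056), nor did Acta2 without chow 4, chow 5, high-fat diet 1, high-fat diet 2, high-fat diet 3 or chow 2 and 5 (adjusted p up to 0.114).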
